A study of Mus musculus with 26 samples.

Results

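The genes of lubricin and hyaluronan, which serve the fluid and surface layer of the joint, were followed through surgically induced osteoarthritis in the mouse. The 8 genes are Prg4, Has1, Has2, Cd44, Hapln1, Tnfaip6, Hyal1 and Hyal2. A gene was represented by the array probe sets annotated to its symbol alone, and its level was read from the one with the highest mean signal over the 26 arrays. By this rule 7 of the 8 genes were measured, with 14 probe sets, out of 18194 genes and 45101 probe sets on the array. Both probe sets of Hyal1 were annotated to a second gene as well, so no level is given for it. The 6 genes other than Hyal1 and Has2 had 11 probe sets bright enough for the test across the array, which covered 11503 genes and 22513 probe sets. Both probe sets of Has2 had a mean log2 signal (7.04 and 6.88) below the brightness threshold of 7.93.

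Lubricin, the product of Prg4, is a mucin-like glycoprotein made by synovial lining cells and superficial zone chondrocytes, and it coats the cartilage surface as a boundary lubricant. Hyaluronan is a long glycosaminoglycan spun out at the plasma membrane by the hyaluronan synthases, among them Has1 and Has2. It gives synovial fluid its viscosity, and in cartilage the link protein Hapln1 fastens aggrecan to it. Tnfaip6 (TSG-6) is an inflammation-induced protein that moves heavy chains of inter-alpha-inhibitor onto hyaluronan, Cd44 is a hyaluronan receptor of the cell surface, and Hyal1 and Hyal2 are hyaluronidases.

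The mice were male C57BL/6 animals, unoperated at time 0 (12 weeks of age) or operated at that age and killed 2, 4, 8 or 16 weeks later, at 14, 16, 20 or 28 weeks of age. They had either destabilization of the medial meniscus (DMM), in which the ligament that anchors the meniscus is cut, or sham surgery, in which it is left intact. RNA came from the whole medial compartment of the knee, with cartilage, subchondral bone and any osteophytes, meniscus, ligaments, and capsule with synovium, so no cell type was separated. Each array held RNA pooled from 3 mice. There were 3 pools in each of the 9 groups except DMM at 2 weeks, where only pools 2 and 3 were run, and the pool is the unit of replication throughout. All values below are log2 signals or differences of them, and a difference of 1 is a 2-fold change. Chondrocyte, osteoblast, fibroblast, macrophage, tendon, adipocyte, endothelial and skeletal muscle markers were all present in the pools. So were markers of neutrophils, B and plasma cells, T and NK cells and erythroid cells. The neutrophil list was the brightest of the lists, with group means from 14.28 to 14.68. Pools correlated with each other at 0.958 to 0.996 over all probe sets. The mean of 11 skeletal muscle markers differed most between pools of one group, from 9.66 to 13.38 in sham joints at 2 weeks.

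Has1 and Tnfaip6 are the genes of the set that separated DMM from sham joints, and the sequences just upstream of their start sites are shown for that reason. They are the 250 bases before the start site in RefSeq (mouse build GRCm38.p6), for Has1 on the minus strand at chr17:17855189-17855438 and for Tnfaip6 on the plus strand at chr2:52037863-52038112. Capitals mark every match, on either strand, to 6 motifs: the TATA box (TATAAA), the AP-1 site (TGANTCA), the cAMP response element (TGACGTCA), the SMAD box (CAGACA), the CCAAT box (CCAAT) and the GC box (GGGCGG).
Has1: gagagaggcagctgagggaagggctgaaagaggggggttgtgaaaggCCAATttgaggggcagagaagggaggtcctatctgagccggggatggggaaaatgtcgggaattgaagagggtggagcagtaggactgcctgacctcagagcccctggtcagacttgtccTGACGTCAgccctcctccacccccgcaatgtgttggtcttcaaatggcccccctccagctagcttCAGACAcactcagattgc
Tnfaip6: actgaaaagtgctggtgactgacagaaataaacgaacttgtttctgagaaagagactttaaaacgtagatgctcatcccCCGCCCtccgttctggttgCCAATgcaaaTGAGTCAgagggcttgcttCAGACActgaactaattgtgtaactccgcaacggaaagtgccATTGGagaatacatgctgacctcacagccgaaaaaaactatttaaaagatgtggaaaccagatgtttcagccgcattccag

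The Has1 window held a cAMP response element whose first base is at -83 from the start site, a motif found in 1.55% of the 32851 upstream windows of this length. The Tnfaip6 window held an AP-1 site, found in 6.75% of windows, and a GC box, found in 32.7%. Both windows held a CCAAT box (33.8% of windows) and a SMAD box (17.1%). The window of Hyal1 held both of these as well, with GC boxes, so the pair was not particular to Has1 and Tnfaip6. The windows of Cd44 and Hapln1 held none of the 6 motifs, and that of Hyal2 held a GC box. These are matches of letters only, and no binding was measured.

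Tnfaip6 gave the widest gap between the operations, at 4 weeks, and its DMM pools were above the sham pools in every week. At 4 weeks its log2 signal was 8.52, 8.30 and 8.53 in the sham pools and 9.75, 11.83 and 9.93 in the DMM pools. The groups did not overlap, and pool 2 of the DMM group stood well above the other DMM pools. The difference of 2.05 ± 0.40 (SE), a 4.15-fold change, passed the test in limma (adjusted p = 0.002373). Without that pool it was 1.39 (adjusted p = 0.0154). At 2 weeks the signal was 9.04, 10.76 and 9.27 in sham pools and 10.90 and 11.09 in DMM pools. Sham pool 2 stood close to the DMM level and apart from the other sham pools. The difference of 1.31 ± 0.45 did not pass (adjusted p = 0.1164), and it passed without sham pool 2 (1.84, adjusted p = 0.02022). With another pool left out it was as low as 0.98. Under the 8 other settings of the limma fit it ran from 0.45 to 1.36 and never passed (adjusted p from 0.07056 to 0.6705).

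At 8 weeks Tnfaip6 had come down to 8.40, 8.38 and 8.40 in DMM pools, against 7.86, 8.12 and 8.09 in sham. At 16 weeks it was 9.49, 8.92 and 8.59 in DMM pools and 8.05, 7.82 and 8.14 in sham. The DMM pools were above every sham pool at both times, but neither difference passed the test (0.37 ± 0.40, adjusted p = 0.7078, and 1.00 ± 0.40, adjusted p = 0.601).

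Has1, a hyaluronan synthase, also had its widest gap at 4 weeks. At 4 weeks its signal was 8.56, 7.97 and 8.33 in sham pools and 9.23, 10.01 and 9.01 in DMM pools. The groups did not overlap, and pool 2 was again the highest of the DMM pools. The difference of 1.13 ± 0.20, a 2.19-fold change, passed the test (adjusted p = 0.001371), and it was 0.83 without DMM pool 2 (adjusted p = 0.01216). The signal was 8.48, 9.15 and 8.57 in sham and 9.24 and 9.20 in DMM pools at 2 weeks, where sham pool 2 again lay near the DMM level. It was 8.10, 8.27 and 7.88 in sham and 8.69, 8.60 and 8.53 in DMM pools at 8 weeks, and 8.18, 8.09 and 8.23 in sham and 8.89, 8.80 and 8.74 in DMM pools at 16 weeks. DMM pools lay above every sham pool each time, and the differences of 0.48 ± 0.23, 0.53 ± 0.20 and 0.65 ± 0.20 did not pass (adjusted p = 0.2635, 0.3222 and 0.3835).

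**Figure D1:**
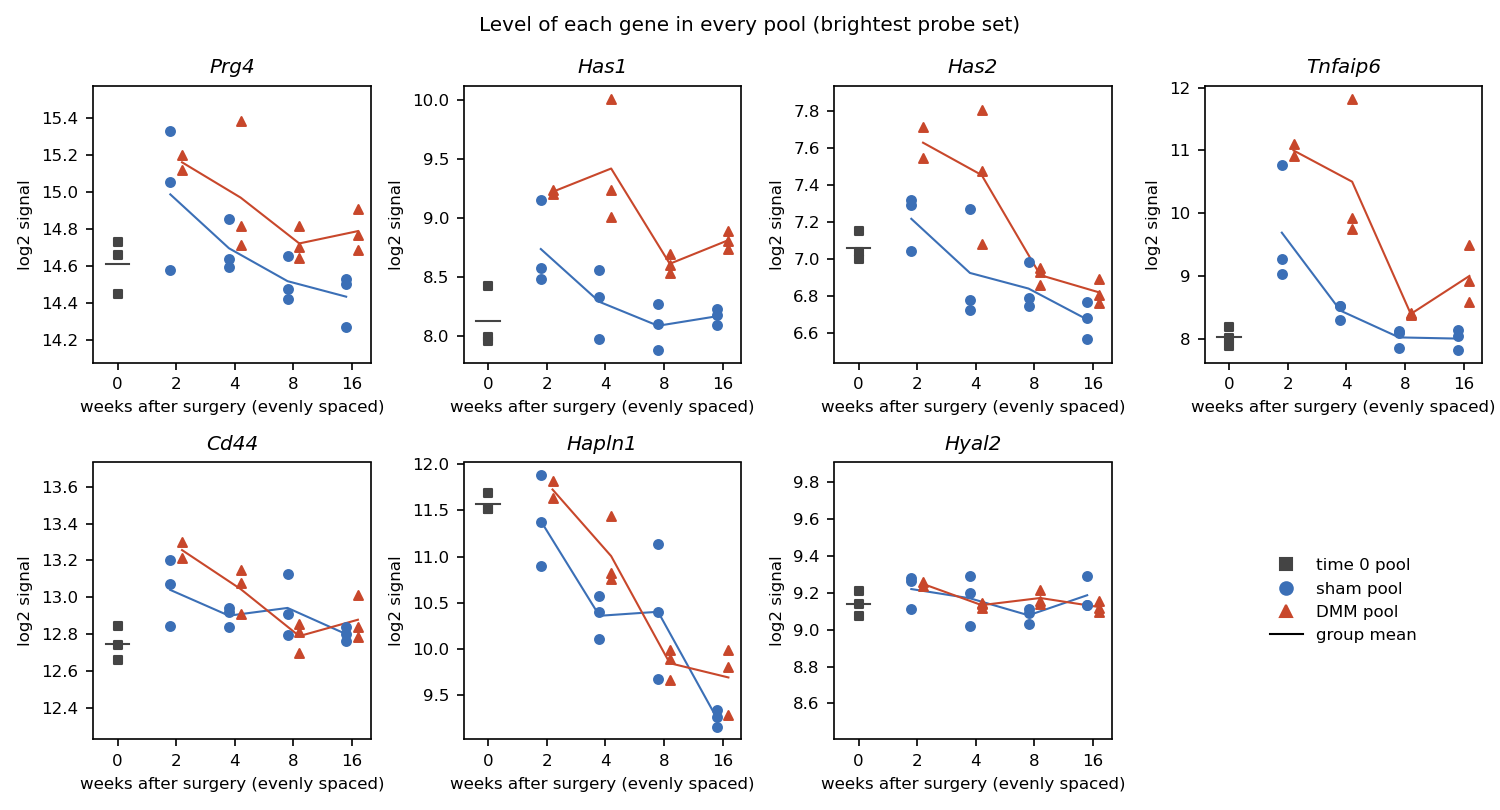
Log2 signal of the brightest probe set of each measured gene (vertical axis, a separate range for each gene) by weeks after surgery, with 1 point per pool and a line through the group means; weeks are evenly spaced. In Has1 and Tnfaip6 every DMM pool sits above every sham pool of its week, and Hapln1 comes down in both groups.

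Counted over the 6 tested genes, 2 of 6 rose at 4 weeks, when 12.4% of all probe sets rose, 6.68% fell and 19% were called in all. None of the 6 was called at 2, 8 or 16 weeks, when 2.43% (1.62% higher, 0.808% lower), 0.00444% and 0.0622% of all probe sets were called. At an unadjusted p under 0.05, 4078, 2727 and 1664 probe sets passed in those weeks. The adjusted counts turned on single pools: at 2 weeks 546 probe sets were called, 0 without sham pool 1 or DMM pool 3, 99 without DMM pool 2, 860 without sham pool 2 and 1760 without sham pool 3. At 8 weeks 536 were called without sham pool 1 in place of 1, and 0 without any one of the other 5 pools, and at 16 weeks the count ran from 5 (without sham pool 1 or DMM pool 1) to 15 in place of 14. Among the 7 measured genes, DMM pools lay above every sham pool for 4 genes at 2 weeks (13.1% of all probe sets tested), for 3 at 4 weeks (19.3%), for 3 at 8 weeks (6.48%) and for 3 at 16 weeks (10.8%). They lay below every sham pool for 0 of the 7 in any week, against 14.1%, 17%, 7.34% and 7.12% of all probe sets. The 4 at 2 weeks were Has1, Tnfaip6, Cd44 and Has2, and Has2 was not among the probe sets tested. Has1 and Tnfaip6 were above in all 4 weeks, as were 257 of the 22513 probe sets tested (1.14%). In tissue of mixed cells, a change in the number of cells of a type and a change in RNA per cell cannot be told apart.

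Averaged over the 4 weeks, a comparison added after the weekly values were seen, DMM exceeded sham by 0.70 ± 0.11 for Has1 (adjusted p = 0.0001504) and by 1.18 ± 0.21 for Tnfaip6 (adjusted p = 0.0006046). With Prg4, these were 3 of 6 genes, when 16.8% of all probe sets were called, 11% higher and 5.77% lower.

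Has2, a further hyaluronan synthase, was dim. Its signal was 7.04, 7.32 and 7.29 in sham and 7.71 and 7.55 in DMM pools at 2 weeks, and 6.78, 6.73 and 7.27 in sham and 7.08, 7.81 and 7.48 in DMM pools at 4 weeks. The groups did not overlap at 2 weeks and did at 4 weeks, while those of the other Has2 probe set overlapped at both. In the fit over all 45101 probe sets, without a brightness threshold, the difference at 2 weeks was 0.41 ± 0.16 (adjusted p = 0.2417), and at 4 weeks it was 0.53 ± 0.14 (adjusted p = 0.01858). The other Has2 probe set gave 0.52 ± 0.19 at 4 weeks (adjusted p = 0.08011). At 8 and 16 weeks the differences were 0.07 ± 0.14 and 0.15 ± 0.14 (adjusted p = 0.9052 and 0.8664).

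Prg4, the lubricin gene, was among the brightest probe sets of the array, at the 99.9 percentile of mean signal. It lay between 14.27 and 15.38 over the 26 pools. At 4 weeks it was 14.64, 14.59 and 14.86 in sham and 14.82, 15.38 and 14.71 in DMM pools, which overlapped. At 16 weeks it was 14.27, 14.53 and 14.50 in sham and 14.77, 14.69 and 14.91 in DMM pools, which did not. The weekly differences of 0.17 ± 0.18, 0.27 ± 0.16, 0.20 ± 0.16 and 0.36 ± 0.16 (2, 4, 8 and 16 weeks) were all above 0, and none passed the test (adjusted p = 0.6683, 0.2314, 0.5939 and 0.6524). Their mean of 0.25 ± 0.08 passed (adjusted p = 0.04006). That call was lost when 1 of 13 of the 23 operated pools was left out (adjusted p from 0.009543 to 0.08218), without the brightness threshold (adjusted p = 0.05634) and with array weights (adjusted p = 0.06171).

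Cd44, the hyaluronan receptor, was 12.85, 13.07 and 13.20 in sham and 13.21 and 13.30 in DMM pools at 2 weeks, so the groups touched without overlapping. At the other weeks they overlapped. The differences of 0.22 ± 0.10, 0.14 ± 0.09, -0.15 ± 0.09 and 0.08 ± 0.09 did not pass (adjusted p = 0.2747, 0.2784, 0.4945 and 0.944). Of its 4 probe sets, 1 was below the brightness threshold, and the other 2 beside the brightest did not pass either. At 2 weeks those 2 overlapped between the groups.

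Hapln1, which stabilises the binding of aggrecan to hyaluronan in cartilage, was 10.40, 10.12 and 10.57 in sham and 10.76, 10.82 and 11.44 in DMM pools at 4 weeks. The groups did not overlap, but the difference of 0.65 ± 0.28 did not pass (adjusted p = 0.1036). The other 3 probe sets gave 0.59 to 0.73 and did not pass, and 2 of them overlapped between the groups. With array weights the difference of the brightest was 0.87 and passed (adjusted p = 0.005177). At 8 weeks the signal was 9.68, 10.40 and 11.13 in sham, a wide spread, and 9.66, 9.99 and 9.89 in DMM pools, with a difference of -0.56 ± 0.28 (adjusted p = 0.423). At 16 weeks it was 9.16, 9.27 and 9.34 in sham and 9.99, 9.80 and 9.29 in DMM pools (difference 0.44 ± 0.28, adjusted p = 0.8061). The other 3 probe sets gave -0.63 to -0.88 at 8 weeks and 0.37 to 0.58 at 16 weeks. At 16 weeks the brightest overlapped between the groups, while 2 of the others had every DMM pool above every sham pool. Skeletal muscle markers differed between the same groups: their mean ran from 12.58 to 13.37 in sham and from 11.23 to 12.25 in DMM pools at 8 weeks, and from 12.49 to 12.57 and 11.09 to 12.13 at 4 weeks. With the muscle level as a covariate the difference of Hapln1 at 4 weeks was 0.49 ± 0.26 (adjusted p = 0.2182). The difference at 8 weeks did not pass with that covariate either. How much of it muscle accounts for was not tested.

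Hyal2, a hyaluronidase anchored to the cell surface, hardly varied, with group means from 9.08 to 9.25. At 8 weeks its DMM pools (9.22, 9.16 and 9.14) lay above every sham pool (9.11, 9.03 and 9.09), a difference of only 0.09. Its weekly differences lay between -0.06 and 0.09, and none passed the test (adjusted p from 0.5476 to 0.9224).

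**Figure D2:**
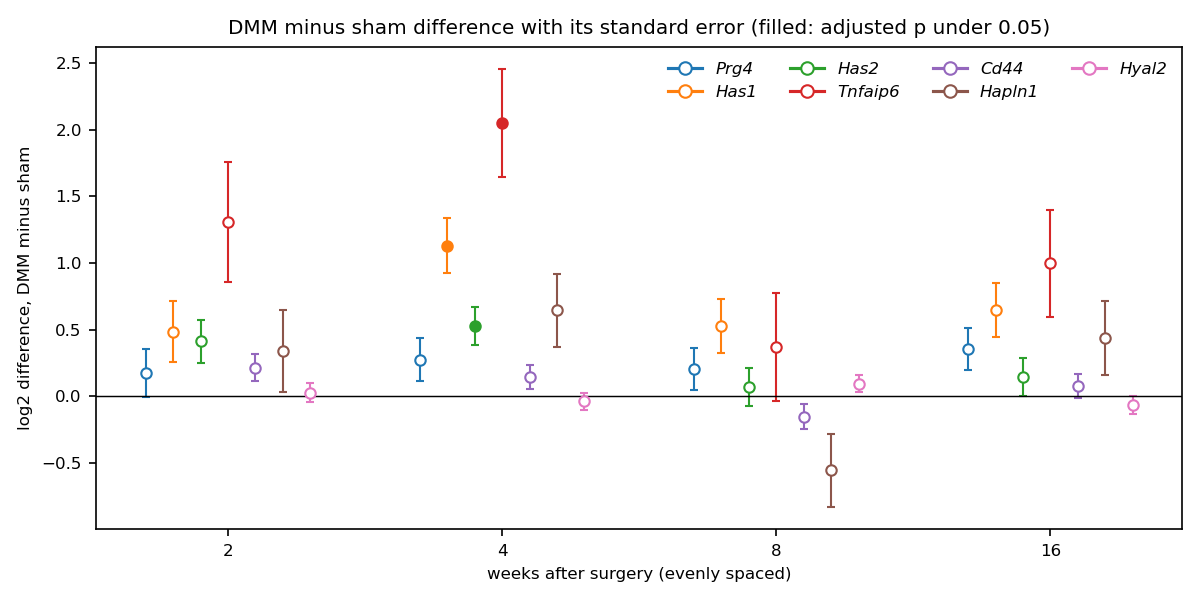
Difference in log2 signal between DMM and sham pools (vertical axis) at each week (evenly spaced), 1 point per gene with its standard error, filled where the adjusted p was under 0.05. Has2 comes from the fit without a brightness threshold, the others from the main fit; Tnfaip6 at 2.05 and Has1 at 1.13 stand highest at 4 weeks.

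Whether the effect of DMM changed between weeks was tested as an interaction. Between 4 and 8 weeks it changed by 1.68 ± 0.57 for Tnfaip6 (adjusted p = 0.08622), by 1.20 ± 0.39 for Hapln1 (adjusted p = 0.07633) and by 0.61 ± 0.29 for Has1 (adjusted p = 0.1758). None of the 6 genes passed, where 1.59% of all probe sets (357) did. That number was 3634 without sham pool 1 at 8 weeks and 2825 without DMM pool 1 at 4 weeks, was 230 and 370 without sham pools 1 and 3 at 4 weeks, and was 0 without any one of the other 8 pools. With the muscle level as a covariate 3 genes passed: Tnfaip6 (adjusted p = 0.04677), Hapln1 (0.02742) and Cd44 (0.04654). Against 2 weeks and against 16 weeks, 0 of 22513 probe sets passed in limma, and at an unadjusted p under 0.05 there were 1107 and 2865.

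Sham joints were compared with time 0, a comparison that shares the sham pools with those above. Hapln1 fell over the course of the study in both kinds of joint. Its signal was 11.69, 11.52 and 11.51 at time 0 and 9.16, 9.27 and 9.34 in sham pools at 16 weeks, far outside each other's range. The difference of -2.32 ± 0.28, a 4.98-fold fall, passed the test (adjusted p = 3.792e-05). All 4 probe sets of the gene passed, with differences from -2.32 to -2.58. It was the only one of the 6 genes called at 16 weeks, when 5.8% of probe sets were called and 4.48% fell. In sham joints it was also called at 4 weeks (-1.21 ± 0.28, adjusted p = 0.03637) and 8 weeks (-1.17 ± 0.28, adjusted p = 0.04809), 1 of 6 genes each time, where 1.21% (0.595% higher, 0.617% lower) and 0.937% of probe sets were called. These 2 calls were not stable. The first held only without sham pool 3 among the pools left out in turn (adjusted p from 0.0448 to 0.2173), and the second only without sham pool 3 at 8 weeks (from 0.01218 to 0.1837). At 2 weeks the pools of Hapln1 overlapped with time 0 (10.90, 11.38 and 11.88, difference -0.19 ± 0.28, adjusted p = 0.7814).

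In DMM joints the differences of Hapln1 from time 0 were 0.15 ± 0.31, -0.57 ± 0.28, -1.72 ± 0.28 and -1.88 ± 0.28 at 2, 4, 8 and 16 weeks. The last 2 passed (adjusted p = 0.002305 and 0.0006871). At 8 and 16 weeks Hapln1 was the 1 gene of 6 called, with 0.742% and 1.73% of probe sets called (0.644% and 1.23% lower). Chondrocyte markers moved with it. Of 13 tested, 12 fell in sham joints at 16 weeks, when 4.48% of all probe sets fell. They were led by Col9a1 (-4.50), Col2a1 (-3.17) and Matn3 (-2.92). The mean of the list ran from 12.15 to 12.35 at time 0 and from 10.18 to 10.54 in sham pools at 16 weeks. All 5 osteoblast markers tested fell too. Time 0 and 16 weeks also differ in the age of the mice, 12 and 28 weeks, and in the surgery, which cannot be told apart here.

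**Figure D3:**
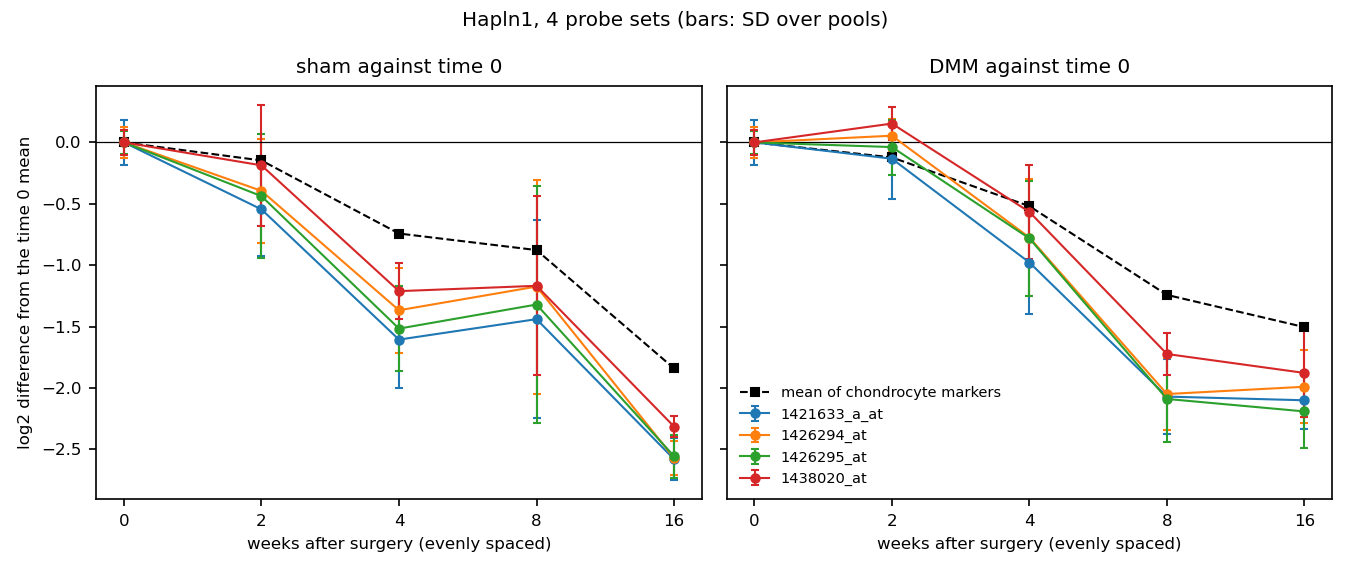
Difference in log2 signal from the time 0 mean (vertical axis) for the 4 probe sets of Hapln1 in sham (left) and DMM joints (right) by weeks after surgery (evenly spaced), with the SD over pools, and the mean of 13 chondrocyte markers (dashed). All 4 probe sets reach -2.32 to -2.58 in sham joints at 16 weeks.

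Tnfaip6 was the only one of the 6 genes called in sham joints at 2 weeks (1.66% of probe sets). It was 8.18, 7.89 and 8.01 at time 0 and 9.04, 10.76 and 9.27 in sham pools, all of them above time 0, and the difference of 1.66 ± 0.40 passed the test (adjusted p = 0.04186). The call was lost when any pool of the 2 groups other than sham pool 1 was left out (adjusted p up to 0.2672, without sham pool 2), and 4 genes were called without sham pool 1. In DMM joints at 2 weeks Tnfaip6 was 2.97 ± 0.45 above time 0 (adjusted p = 9.614e-05), Has1 1.10 ± 0.23 (adjusted p = 0.001233), Cd44 0.51 ± 0.10 (adjusted p = 0.001061) and Prg4 0.55 ± 0.18 (adjusted p = 0.02514). These were 4 of 6 genes, where 29.5% of probe sets were called, 14.3% higher and 15.2% lower. The probe sets of Cd44 disagreed here: the second brightest gave 0.50 (adjusted p = 0.008523), the third 0.02 (adjusted p = 0.9125), and the call was lost with the mean of all its probe sets (0.20, adjusted p = 0.0822). The call of Prg4 was lost without time 0 pool 2 (adjusted p = 0.09671), DMM pool 2 (0.07741) or DMM pool 3 (0.1287), and with quantile normalization (0.35, adjusted p = 0.08402). At 4 weeks 2 of 6 were called (8.17% of probe sets, 6.4% higher), Tnfaip6 at 2.47 ± 0.40 (adjusted p = 0.000839) and Has1 at 1.30 ± 0.20 (adjusted p = 0.0006305). At 8 weeks the differences were 0.37 for Tnfaip6 and 0.49 for Has1, and at 16 weeks they were 0.97 ± 0.40 (adjusted p = 0.2959) and 0.69 ± 0.20 (adjusted p = 0.1033). None of these was called, though Has1 passed at 16 weeks with array weights (adjusted p = 0.006776) and with only the groups compared (adjusted p = 0.02929).

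Ordered by group mean, Tnfaip6 ran from 8.00 in sham joints at 16 weeks up to DMM joints at 2 weeks (10.90 and 11.09). The lowest places, sham at 16 and 8 weeks and time 0, overlapped and spanned 8.00 to 8.03. DMM at 4 weeks (10.50 ± 1.15, SD, n = 3) was second, and its pools surrounded those of DMM at 2 weeks. For Has1 the top places were DMM at 4 weeks (9.42 ± 0.53, n = 3) and at 2 weeks (9.22 ± 0.03, n = 2), which also overlapped. For Hapln1 the order ran from DMM at 2 weeks (11.73 ± 0.14, n = 2) and time 0 (11.57 ± 0.10, n = 3) to sham at 16 weeks (9.26 ± 0.09, n = 3).

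The selection used in the study was also applied. It subtracts the mean log2 signal of the control pools (sham for DMM, time 0 for sham) from that of each pool, asks for an absolute value of at least 0.5 at some time in each replicate course, and then for likeness between courses in correlation and distance. The study's own first step, a filter on detection p, was not applied here, and the brightness threshold stood in its place. The signal ratio step was passed by 6 of the 11 tested member probe sets in the DMM course (Tnfaip6, Has1 and 4 of Hapln1; 4.46% of all tested) and by 5 of 11 in the sham course (Tnfaip6 and 4 of Hapln1; 5.29%). None of the 11 met all the steps applied in either course, which 1.64% and 1.77% of tested probe sets did. The DMM ratios of Tnfaip6 at 4 weeks, 1.30, 3.38 and 1.48, show the distance between replicates.

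The rest of the pathway was read from lists of genes with related roles. The counts at 4 weeks below stand beside 12.4% of all probe sets called higher and 6.68% called lower. At 4 weeks the genes listed for sugar nucleotide supply to hyaluronan were called higher for 5 of 10 tested and lower for 0. Their median difference was 0.32 against -0.02 over all genes. Not all of them make sugar nucleotides, as the list also holds the deaminases Gnpda1 and Gnpda2. Uap1, which makes UDP-N-acetylglucosamine, was higher by 0.50 (adjusted p = 0.02913). The rate-limiting enzymes of the hexosamine pathway, Gfpt1 and Gfpt2, were higher by 0.47 and 0.49 (adjusted p = 0.002703 and 0.01002). Ugdh, which makes UDP-glucuronic acid, was higher by 0.45 (adjusted p = 0.04873). The third synthase, Has3, was below the brightness threshold.

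Among the partners of Tnfaip6, 3 of 5 tested rose at 4 weeks and 0 fell. Ptx3, a pentraxin that Tnfaip6 binds in the hyaluronan matrix, was higher by 0.87 (adjusted p = 0.01379) and by 1.52 at 2 weeks (adjusted p = 0.01236). Pcolce, an enhancer of collagen propeptide cleavage, was higher by 1.16 (adjusted p = 0.002853), and Itih2, a heavy chain of inter-alpha-inhibitor, by 0.38 (adjusted p = 0.0117). Itih1, Itih3, Itih4 and Ambp were below the threshold.

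Of the proteoglycans and link proteins that bind hyaluronan, 2 of 3 tested rose at 4 weeks, Vcan by 1.15 (adjusted p = 0.02543) and Acan by 0.54 (adjusted p = 0.04923), and Hapln3 did not pass (-0.16, adjusted p = 0.302). In sham joints at 16 weeks Acan, the large aggregating proteoglycan of cartilage, was lower than at time 0 by 1.46 on the log2 scale (difference -1.46). Of 7 hyaluronan receptors tested, 2 rose at 4 weeks (12.4% of all probe sets did), Tlr2 by 0.55 (adjusted p = 0.01382) and Stab1 by 0.42 (adjusted p = 0.01151), and Lyve1 gave 0.33 (adjusted p = 0.2951). Of 3 genes for hyaluronan breakdown, 0 were called. Cemip, which acts in the depolymerisation of hyaluronan, gave 0.88 (adjusted p = 0.1086).

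Of 9 partners and sheddases of CD44, 2 rose. Mmp14 rose by 1.06 (adjusted p = 0.001586) and Adam17 by 0.46 (adjusted p = 0.003072), both proteases that act at the cell surface, while the cytoskeletal linkers Msn (0.16, adjusted p = 0.1079), Ezr and Rdx did not pass. Of 3 ligands, Hbegf, a heparin-binding growth factor, rose by 0.90 (adjusted p = 0.03385). Of 11 genes reported to regulate Prg4, 7 rose and 0 fell. They included Egfr (1.13, adjusted p = 0.002882), Tgfb3 and Creb5 (0.79, adjusted p = 0.007318). Of 7 other genes of the joint surface, 3 rose: Abi3bp (1.12, adjusted p = 0.001185), Thbs4 (1.11, adjusted p = 0.002882) and Fn1 (0.51, adjusted p = 0.02703). At 2 weeks, when 1.62% of all probe sets rose, Ptx3 and Abi3bp were the only genes of these lists called, both higher. At 8 and 16 weeks 0 were, with 0.00444% and 0.0622% of all probe sets called. In sham joints at 16 weeks 0 genes of these lists rose above time 0, when 1.31% of all probe sets rose. Those that fell were 5 of the 7 joint surface genes, 3 of the 11 regulators of Prg4, and Acan, Mmp14 and Pcolce. Of all probe sets 4.48% fell.

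**Figure D4:**
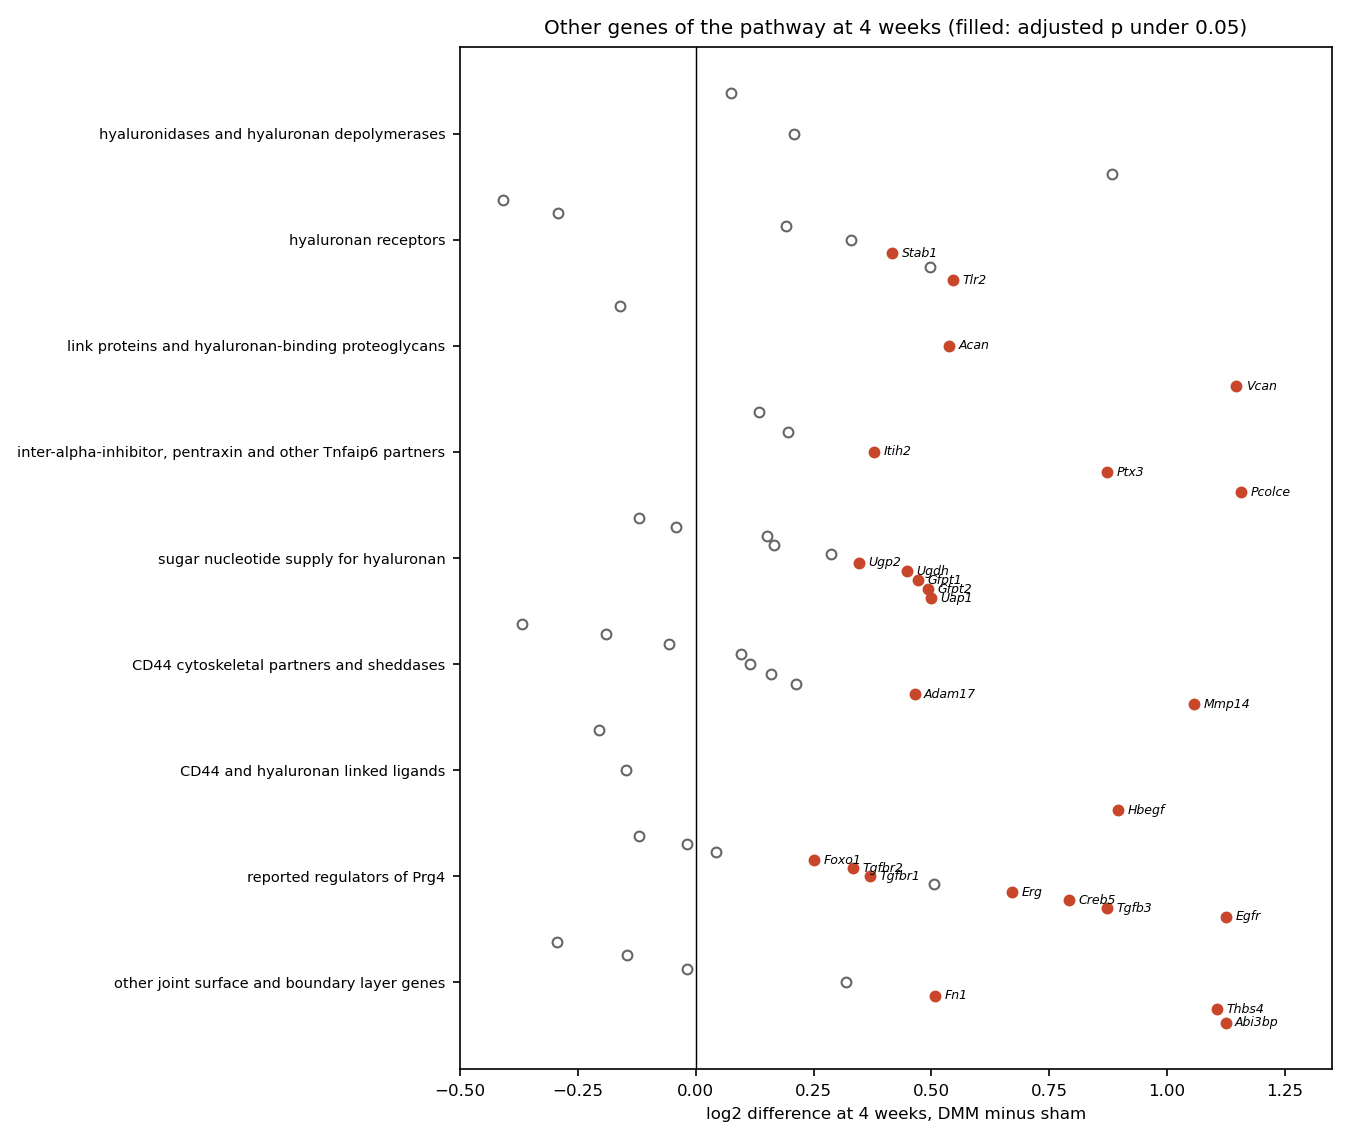
Difference in log2 signal between DMM and sham joints at 4 weeks (horizontal axis) for each tested gene of 9 pathway lists (vertical axis), 1 point per gene, filled and named where the adjusted p was under 0.05. All filled points lie above 0.

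Cell type markers moved at the same time, beside the same shares of all probe sets (12.4% higher, 6.68% lower). At 4 weeks 7 of 10 markers of sublining and other fibroblasts rose, among them Dpt (1.34), Pdpn (1.25) and Thy1 (1.16), and 4 of 5 of tendon and ligament, led by Tnmd (2.20). Of 7 markers of synovial lining fibroblasts, 3 rose, Hbegf, Htra4 and Fgfr1. Of 6 endothelial markers 4 rose (Cdh5, Emcn, Pecam1 and Tek), as did Ibsp and Mmp13, 2 of 3 markers of hypertrophic chondrocytes. Of 13 chondrocyte markers Acan rose, and Chad and Cytl1 fell. None of 10 macrophage markers was called, and 4 of 5 adipocyte markers fell, Adipoq by 0.89 on the log2 scale (difference -0.89). The mean of the fibroblast list ran from 11.25 to 11.64 in sham and from 11.91 to 12.44 in DMM pools at 4 weeks, and that of the lining list from 9.91 to 10.24 and from 10.28 to 10.67. At 2 weeks the fibroblast list ran from 11.68 to 12.31 in sham and from 12.52 to 12.56 in DMM pools. The macrophage list overlapped in every week. Lists of neutrophil, B and plasma cell and erythroid markers lay lower in DMM pools at 4 weeks, without overlap. The neutrophil list ran from 14.56 to 14.77 in sham and from 14.33 to 14.52 in DMM pools. The B and plasma cell list ran from 10.74 to 10.88 and from 10.05 to 10.61. The erythroid list ran from 11.66 to 11.92 and from 11.11 to 11.61. At 2 weeks the neutrophil and T and NK cell lists lay below sham without overlap, and the B cell and erythroid lists overlapped. The part of these cell types in the rise of Has1 and Tnfaip6 was not tested.

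**Figure D5:**
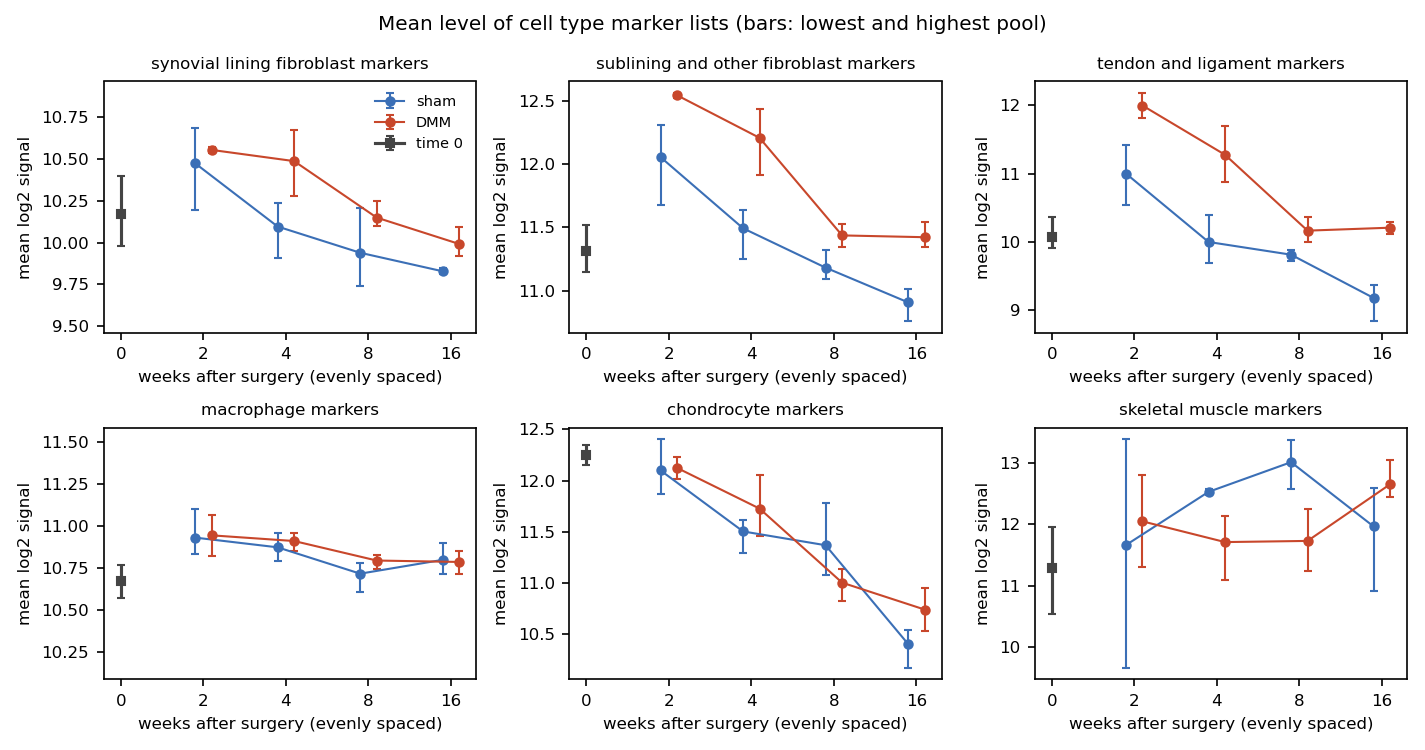
Mean log2 signal of 6 lists of cell type markers (vertical axis) by weeks after surgery (evenly spaced) at time 0 and in sham and DMM joints, as group means with bars to the lowest and highest pool. The lists of sublining and other fibroblasts and of tendon and ligament lie higher in DMM joints in all 4 weeks, without overlap. The macrophage list overlaps, and the muscle list has the widest bars.

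The genes most like each member were found from the correlation over the 9 group means among 11503 genes, a description in which all genes share the same pools. Prg4 was closest to Fn1 (r = 0.991), Mmp2 (0.988) and Mfap5 (0.986), which are genes of fibroblast matrix and its turnover. Tnfaip6 was closest to Atp8b1 (0.994), Chl1 (0.994) and Thy1 (0.991). Hapln1 was closest to the cartilage genes Epyc (0.995) and Col11a1 (0.988), and then Aoc3 (0.987). Has1 was closest to Smurf1 (0.969), and Cd44 to Dtx3 (0.993), though over the 26 single pools these fell to 0.739 and 0.55. Hyal2, whose group means spanned 0.17, was closest to 4930545H06Rik (0.985, and 0.558 over pools). Between members the highest values were 0.947 for Prg4 with Tnfaip6 and 0.935 for Has1 with Tnfaip6, and Hapln1 had 0.358 with Has1 and 0.64 with Prg4. Among 11502 other genes Tnfaip6 ranked only 237 in likeness to Prg4, and 37 in likeness to Has1.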

How the data were processed

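The deposited log2 signals of 26 Affymetrix mouse arrays, 1 colour each, were used unchanged. The authors had made them comparable with systematic variation normalization (array medians 7.90 to 7.95). No detection p was used. In GEO's platform annotation 34958 probe sets have a single gene symbol, 932 have several and 9211 have none.

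Differences were fitted in limma 3.58.1 (R 4.3.3) with 1 coefficient per group over all arrays (degrees of freedom: 17 residual, 3.54 prior). Tested were probe sets whose mean lay above the median of all values (7.93), with Benjamini-Hochberg adjustment over all 22513 and a call at an adjusted p under 0.05. The fit was tested on simulated data. The comparisons were DMM with sham in each week, each week with time 0, and the DMM effect between weeks. Gene names in the text are the members, the 3 genes most like each, and of each list the called genes with the largest differences and the brightest. The members and lists were chosen with earlier results of these data known.

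The labels number the pools, and per the methods pools were made and paired at random. Deviations of same-numbered pools correlated between -0.419 and 0.556, over 0.1 in 15 of 34 pairs and in every pair of 3 of 12 comparisons. These were DMM against sham at 8 weeks (0.475, 0.325 and 0.556) and DMM against time 0 at 2 and at 16 weeks. The block by number was therefore kept as an alternative. Others were no brightness threshold, fitting only the groups compared, array weights, quantile normalization, a muscle marker or Gapdh 3′/5′ covariate, the mean of all probe sets of a gene, leaving out each pool, and another average for the signal ratios. With 2 or 3 pools a group, the smallest exact p is 0.2 or 0.1, so none is given. The number of arrays limits the precision.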

Additional observations from a re-analysis of the deposited data

Results flagged for a closer look

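The DMM effect had opposite signs in every pool at pairs of weeks that no interaction term compared, and these differences between weeks were not tested. For the brightest probe set of Cd44 the DMM pools averaged 0.22 above the sham mean at 2 weeks and -0.15 from it at 8 weeks. The other tested probe sets of Cd44 did not share this, as DMM pool 3 lay above the sham mean at 8 weeks (0.04 and 0.09). For Hapln1 they averaged 0.34 at 2 weeks, -0.56 at 8 weeks and 0.44 at 16 weeks. For Hyal2 they averaged 0.0278 at 2 weeks, 0.0938 at 8 weeks and -0.064 at 16 weeks. No group had the 4 pools needed to look for a single outlying value.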

How the results depend on the processing

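The calls of Tnfaip6 and Has1 in DMM against sham at 4 weeks, and of Hapln1 in sham against time 0 at 16 weeks, held under all 8 other settings and with each pool left out. Tnfaip6 at 4 weeks ranged from 1.39 to 2.43 (adjusted p from 0.000794 to 0.04252), Has1 from 0.83 to 1.34 (0.000653 to 0.03949) and Hapln1 from -2.51 to -2.18 (4.995e-08 to 0.000659). No member called in the main fit changed sign. The number of member genes called moved by more than 1.5 times as follows. With quantile normalization it was 4 for DMM against sham at 4 weeks (Prg4 and Cd44 added). With only the groups compared it was 1 for DMM against sham at 16 weeks (Has1, adjusted p = 0.02846), 0 for sham against time 0 at 2 and 8 weeks, 0 for DMM against time 0 at 4 weeks and 2 for DMM against time 0 at 16 weeks. With array weights it was 4 for sham against time 0 at 2 weeks, 2 for DMM against time 0 at 8 and at 16 weeks, and 3 for the change of the DMM effect from 4 to 8 weeks. With the muscle covariate it was 3 for sham against time 0 at 2 weeks, 0 at 4 and at 8 weeks, 4 for DMM against time 0 at 4 weeks, and 3 for the change of the DMM effect from 4 to 8 weeks. With the Gapdh covariate it was 0 for sham against time 0 at 2, 4 and 8 weeks and 0 for DMM against time 0 at 8 weeks. Without the brightness threshold it was 0 for sham against time 0 at 2 and 8 weeks. Smaller moves at DMM against sham at 4 weeks were Hapln1 added with array weights and Has2 added without the threshold. At DMM against time 0 at 4 weeks, Cd44 was also added with array weights and with quantile normalization (adjusted p = 0.0004947 and 0.04764). At DMM against time 0 at 2 weeks, Prg4 was lost with quantile normalization and Cd44 with the mean of all probe sets. The cause was not tested.

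With 1 pool left out, the number of member genes called ranged from 0 to 1 for DMM against sham at 2 weeks, from 0 to 4 for sham against time 0 at 2 weeks, from 0 to 1 at 4 and at 8 weeks, and from 0 to 2 for the change from 4 to 8 weeks. The number of probe sets called in DMM against sham at 4 weeks ranged from 1570 (without sham pool 2) to 5526, against 4287 with all pools, was 1743 without DMM pool 2 and 2210 without DMM pool 3, 2070 with only the groups compared and 7480 with array weights. The replicate block changed no member count: 2 genes were called at 4 weeks in DMM against sham. Over all probe sets it gave 716 in place of 357 for the change from 4 to 8 weeks, and 328 in place of 546 for DMM against sham at 2 weeks. The other average for the signal ratios left 0 of 11 tested probe sets past the selection steps applied. Only 2 or 3 pools stood behind each mean, and Has2 lay near the dim end of the signal range.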
